A study of Mus musculus with 6 samples.

Results

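The 7 genes described here are the TREM receptors Trem1, Trem2, Trem3, Treml2 and Treml4 and the signalling adaptors Tyrobp (also DAP12) and Hcst (also DAP10), chosen by symbol from 46333 gene entries in bone marrow RNA of mice. The study held 3 libraries from mice under chronic unpredictable mild stress (CUMS), a procedure of changing mild stressors used, per the labels, to bring on depression, kept up for 4 weeks. They were set against 3 libraries labelled as negative control, for which the labels name no other treatment. Strain, sex and age, the cells' preparation beyond "bone marrow cells", and whether each library came from 1 mouse are not given in the sources used here. All 7 genes had at least 1 FPKM (fragments scaled for transcript length and library size, a unit no label names and that was read from the values) in each library, so all 7 passed the filter on low values.

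TREM receptors (triggering receptors expressed on myeloid cells) are surface proteins with an immunoglobulin-like domain, carried mainly by neutrophils, monocytes, macrophages and dendritic cells. Most have almost no signalling tail of their own and pair through a charged residue in the membrane with Tyrobp, whose ITAM motif recruits the kinase Syk once it is phosphorylated. Hcst is a sister adaptor that recruits phosphoinositide 3-kinase, and is best known as the partner of the lymphocyte receptor Klrk1 (NKG2D). Trem1 amplifies inflammatory responses of neutrophils and monocytes, while Trem2 senses lipids and debris and is often described as a brake on inflammation in macrophages and microglia.

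In CUMS marrow Trem1 RNA was 1.80 times its level in control marrow and passed the test, the single one of the 7 genes to do so. Treml4, a receptor of dendritic cells and non-classical monocytes in mice, and Tyrobp had lower values in every CUMS library than in any control library, at 0.644 and 0.807 times the control mean, but neither passed. Trem3, Treml2, Trem2 and Hcst had overlapping groups, with ratios of means between 0.889 and 1.02. Over all 12302 tested genes, 1.07% passed at an adjusted p under 0.05 (limma on log2(FPKM + 1), Benjamini-Hochberg), 0.618% higher and 0.455% lower, against 1 of these 7, which was higher. Over all tested genes these were 76 higher and 56 lower genes, and 65 higher and 101 lower ones when all libraries were scaled to the same summed FPKM. Groups that did not overlap were seen for 3 of the 7, against 22.1% of all tested genes. The 7 genes were chosen with earlier results of these data known, so their counts are no independent support.

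The receptor genes lie in 1 cluster on chromosome 17 (GRCm38, RefSeq coordinates). On the plus strand they follow in the order Trem1 (48232713 to 48246927), Trem3 (48247677 to 48258848), Treml4 (48264200 to 48275607), Treml2 (48299390 to 48312534) and Trem2 (48346401 to 48352276). Trem1 ends 749 bp before Trem3 begins, and Trem3 ends 5351 bp before Treml4. Tyrobp (30413782 to 30417582, plus strand) and Hcst (30417712 to 30419854, minus strand) stand tail to tail on chromosome 7, with 129 bp between their ends. The exons of the 7 genes overlapped those of no other gene in GENCODE M21, and none of their 50-base words occurred in a transcript of another gene on either strand.

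Promoters are shown because Trem1 and Treml4 are near neighbours whose CUMS values lay on opposite sides of the control values. The RefSeq table (GRCm38.p6) held a promoter for 4 of the 7 genes. The bases below run 5′ to 3′ on the gene's own strand and stop where the RefSeq gene begins. They are chr17:48232489-48232712 for Trem1, chr17:48264045-48264199 for Treml4, chr17:48346151-48346400 for Trem2 (all plus strand) and chr7:30419855-30420104 for Hcst (minus strand). Capitals mark matches to 4 motifs on either strand, picked after the sequences had been seen: GGAAGT (an ETS-like site), TGANTCA (AP-1-like), TGANGTCA (CRE-like) and TTGNGNAA (C/EBP-like).
Trem1: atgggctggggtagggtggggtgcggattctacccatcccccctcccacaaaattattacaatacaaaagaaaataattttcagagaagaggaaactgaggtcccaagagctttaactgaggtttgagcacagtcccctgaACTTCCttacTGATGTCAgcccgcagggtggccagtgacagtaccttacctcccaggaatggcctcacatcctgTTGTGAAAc
Treml4: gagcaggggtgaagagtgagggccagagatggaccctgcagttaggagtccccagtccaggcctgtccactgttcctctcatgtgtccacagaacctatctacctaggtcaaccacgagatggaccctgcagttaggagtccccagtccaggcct
Trem2: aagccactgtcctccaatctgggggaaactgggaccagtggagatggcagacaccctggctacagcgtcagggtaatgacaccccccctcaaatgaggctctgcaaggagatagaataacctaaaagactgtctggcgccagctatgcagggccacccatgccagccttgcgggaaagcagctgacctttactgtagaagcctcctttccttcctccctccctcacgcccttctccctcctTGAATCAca
Hcst: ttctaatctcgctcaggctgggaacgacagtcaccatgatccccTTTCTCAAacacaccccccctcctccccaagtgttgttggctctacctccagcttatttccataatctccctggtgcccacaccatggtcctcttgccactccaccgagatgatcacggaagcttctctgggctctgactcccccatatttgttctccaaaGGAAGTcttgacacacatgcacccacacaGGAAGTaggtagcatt
The Trem1 stretch held 1 match each of GGAAGT, TGANGTCA and TTGNGNAA. In stretches of the same length (224 bases) these motifs stood in 16.9%, 6.44% and 10.9% of all 32851 promoters of the table. Its TGATGTCA begins 99 bases before the end of the 250-base window held for Trem1. The last 26 bases of that window lie in the RefSeq gene and are not printed. No match of the 4 motifs stood in the 155 bases of Treml4, where the same motifs stood in 3.03% to 11.0% of promoters. Hcst held 2 matches of GGAAGT (19.7% of promoters hold at least 1 in 250 bases) and 1 of TTGNGNAA, and Trem2 held 1 of TGANTCA (6.75%). A match describes letters in the sequence and is no evidence of binding.

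The libraries' values summed to 593129 to 653026 FPKM in CUMS and 561563 to 658595 FPKM in control marrow, and values above 0 went down to 1e-06 FPKM, so counts were not recovered, depth in counts is unknown and no counting intervals are given. The headers carry a code of unstated meaning, which is 1 in both first replicates and 2 in the remaining 4 libraries. Of all FPKM, 31.7% to 35.3% in CUMS and 28.8% to 29.2% in control libraries came from haemoglobin genes. As a check of the labelled tissue, 10 of 10 neutrophil, 6 of 6 classical monocyte and 5 of 5 red cell markers passed the filter, and 1 of 5 muscle and fat markers did.

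Trem1 stood at 24.8, 30.9 and 30.3 FPKM in CUMS replicates 1, 2 and 3, and at 15.4, 16.6 and 16.0 FPKM in control replicates 1, 2 and 3. The lowest CUMS library, replicate 1, was well above the highest control library. The means were 28.7 ± 3.35 FPKM in CUMS and 15.98 ± 0.609 FPKM in control marrow (SD, n = 3 each), a log2 change of 0.80 (SE 0.108) with a limma adjusted p of 0.0196. In the pair of libraries with header code 1 the log2 difference was 0.66, and in the 4 with code 2 it was 0.87 (adjusted p = 0.000883). The call was lost when both groups were scaled to the same summed FPKM (log2 change 0.76, adjusted p = 0.0622) and when genes of low value were kept in (0.0866). It was also lost without CUMS replicate 2 (0.117), CUMS replicate 3 (0.118), control replicate 2 (0.0759) or control replicate 3 (0.108), where the log2 change lay between 0.74 and 0.82.

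Trem3, a Tyrobp-coupled activating receptor that is functional in mice and a pseudogene in humans, was the receptor with the highest level. It had 88.2, 83.5 and 85.3 FPKM in CUMS replicates 1 to 3, and 109.5, 86.8 and 88.8 FPKM in control replicates 1 to 3. The groups overlapped: control replicate 2 lay within the CUMS range, control replicate 3 just above it, and control replicate 1 above all others. Its log2 change was −0.14 (SE 0.111, adjusted p = 0.609), and −0.06 in the libraries of header code 2 alone. Trem1 amounted to 28.2%, 37.0% and 35.5% of the FPKM of Trem3 in CUMS replicates 1 to 3, and to 14.0%, 19.1% and 18.1% in control replicates 1 to 3.

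Treml4 binds dying cells and sensitises Toll-like receptor 7 in mice. It had 5.34, 5.94 and 4.78 FPKM in CUMS replicates 1 to 3, and 7.56, 9.01 and 8.37 FPKM in control replicates 1 to 3. Every CUMS library lay below every control library. The means were 5.35 ± 0.579 FPKM in CUMS and 8.31 ± 0.727 FPKM in control marrow (SD, n = 3 each), with a log2 change of −0.55 (SE 0.114) that missed the threshold (adjusted p = 0.0740). With the replicate block it passed (adjusted p = 0.0175), as did Trem1 (adjusted p = 0.00424), against 7.80% of all tested genes (3.49% higher, 4.31% lower). With the header code as a term the same 2 of the 7 passed, 1 in each direction, against 6.06% higher and 7.31% lower. The ratio of Trem1 to Treml4 was 4.65, 5.21 and 6.34 in CUMS replicates 1 to 3, and 2.03, 1.84 and 1.92 in control replicates 1 to 3.

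Values of other markers stood beside that of Treml4. Of 7 tested non-classical monocyte markers 1 fell, the fractalkine receptor Cx3cr1 (5.17 ± 0.357 FPKM in CUMS and 12.3 ± 1.35 FPKM in control marrow, log2 change −1.10, adjusted p = 0.00817). With the block 2 were lower, Cx3cr1 and the peptidase Ace (log2 change −0.76, adjusted p = 0.0671, with the block 0.0185), and 1 was higher, the nuclear receptor Nr4a1. Over all tested genes 0.455% were lower with group as the only term. With the block 4.31% were lower and 3.49% higher. Nr4a1 had 23.98 ± 5.398 FPKM in CUMS and 12.5 ± 2.97 FPKM in control marrow (SD, n = 3 each), with groups apart (log2 change 0.89, adjusted p = 0.101, with the block 0.00353). The summed FPKM of the non-classical monocyte list was 151 to 172 in CUMS and 149 to 166 in control libraries. Spn and Itgal held most of it, with means of 57.3 and 42.2 FPKM in CUMS and 51.8 and 46.5 FPKM in control marrow. No marker of the dendritic cell list passed, and Bst2, an interferon-induced surface protein, came nearest at a log2 difference of −0.55 (adjusted p = 0.0514). With the block 2 of 6 were lower, against 4.31% of all tested genes: Bst2 (0.0167) and the lectin Cd209a (0.0189). That list summed to 66.3 to 69.1 FPKM in CUMS and 89.5 to 101.7 FPKM in control libraries. Most of that sum was Bst2, at means of 46.1 FPKM in CUMS and 67.9 FPKM in control marrow. Of the 6 tested dendritic cell markers 2 had log2 changes above 0. The part of these cell types in the values of Treml4 was not tested. In bulk marrow, fewer cells of a type and less RNA per cell cannot be told apart.

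Treml2, a receptor of B cells, neutrophils and macrophages that is not known to need Tyrobp, had 21.3, 24.3 and 21.8 FPKM in CUMS replicates 1 to 3. Control replicates 1 to 3 had 23.6, 25.8 and 25.0 FPKM. CUMS replicate 2 lay inside the control range, and the log2 change of −0.14 (SE 0.0930) did not pass (adjusted p = 0.536). The B cell markers gave no call among 5 (1 lower with the block, against 4.31% of all tested genes). That list summed to 118 to 134 FPKM in CUMS and 139.6 to 158 FPKM in control libraries.

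Trem2 had the lowest mean of the receptors in control marrow. It had 6.61, 5.20 and 6.07 FPKM in CUMS replicates 1 to 3, and 7.64, 5.69 and 6.79 FPKM in control replicates 1 to 3. The groups overlapped between 5.69 and 6.61 FPKM. Its log2 change was −0.14 (SE 0.133, adjusted p = 0.670). Of 8 macrophage markers none passed. The mannose receptor Mrc1 came nearest (log2 change −0.54, adjusted p = 0.0630). With the replicate block 4 of the 8 were lower, against 4.31% of all tested genes. They were Mrc1 (0.0183) and the complement genes C1qa (0.0145), C1qb (0.0457) and C1qc (0.0361). Of the 8 macrophage markers 2 had log2 changes above 0. That list summed to 169 to 185 FPKM in CUMS and 200.2 to 257 FPKM in control libraries. None of the 3 tested osteoclast markers passed either, and Atp6v0d2, a proton pump subunit, had the smallest p (log2 change 0.10, adjusted p = 0.831).

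Tyrobp, the common adaptor, was among the most abundant transcripts of the marrow, above 99.3% of the tested genes by mean log2 level. It had 547, 596 and 579 FPKM in CUMS replicates 1 to 3, and 801, 646 and 687 FPKM in control replicates 1 to 3. The highest CUMS library lay below the lowest control library, by less than the control SD of 80.3 FPKM, and control replicate 1 stood highest. The log2 change was −0.30 (SE 0.118) and did not pass (adjusted p = 0.279, unadjusted p = 0.0336). With the replicate block it did not pass either (adjusted p = 0.0991). The log2 difference was −0.55 in the pair with header code 1 and −0.18 in the libraries with code 2.

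Hcst had 49.8, 43.1 and 44.1 FPKM in CUMS replicates 1 to 3, and 51.4, 42.3 and 41.2 FPKM in control replicates 1 to 3. In both groups replicate 1, the library with header code 1, was the highest, and the groups overlapped throughout. The log2 change was 0.03 (SE 0.115, adjusted p = 0.946), and its sign depended on the scaling: it was −0.015 after scaling to the same summed FPKM. Among 5 tested NK cell markers, cells in which Hcst serves Klrk1, none passed, and Klre1, a lectin-like NK receptor, had the smallest p (log2 change −0.35, adjusted p = 0.415). Of these 5 markers 2 had log2 changes above 0.

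**Figure D1:**
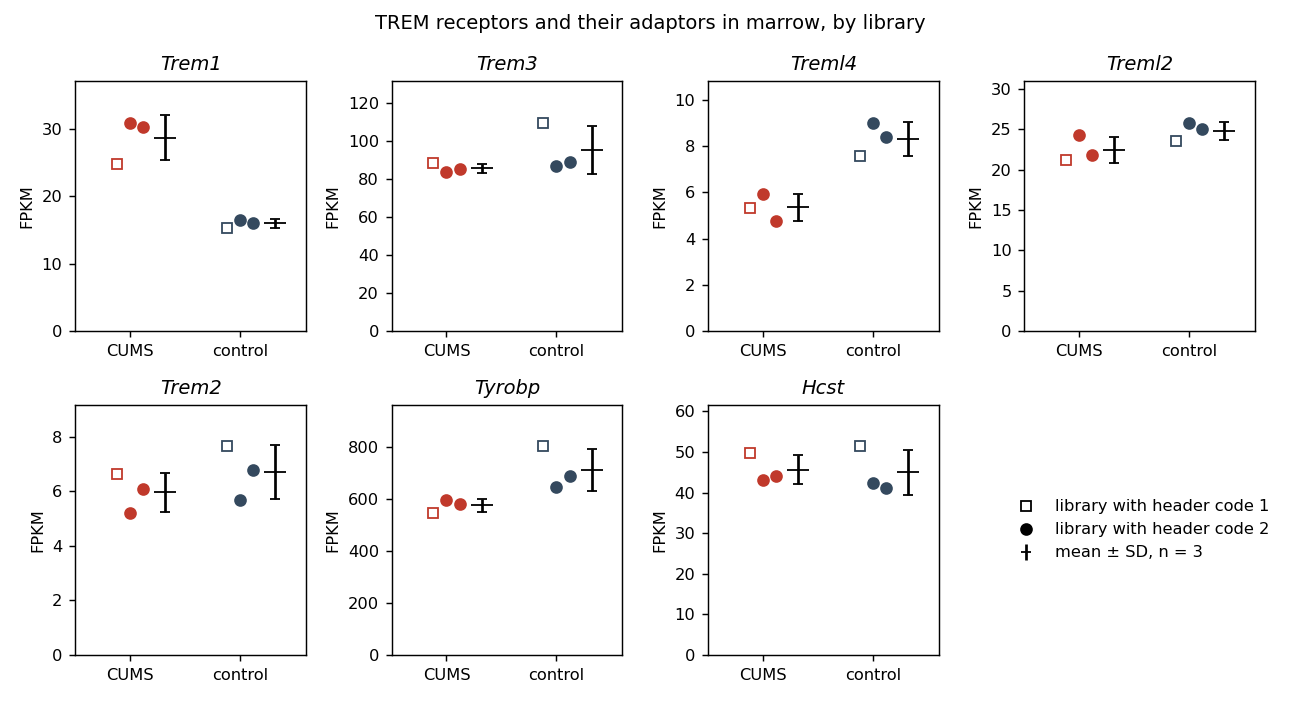
FPKM (y axis, from 0) of each of the 7 genes in the 3 CUMS libraries (red) and the 3 control libraries (dark), with the mean ± SD beside each group; open squares are the libraries with header code 1 and filled circles those with code 2. The CUMS libraries sit at 24.8 to 30.9 FPKM for Trem1, above all control libraries, and below all control libraries for Treml4 and Tyrobp.

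**Figure D2:**
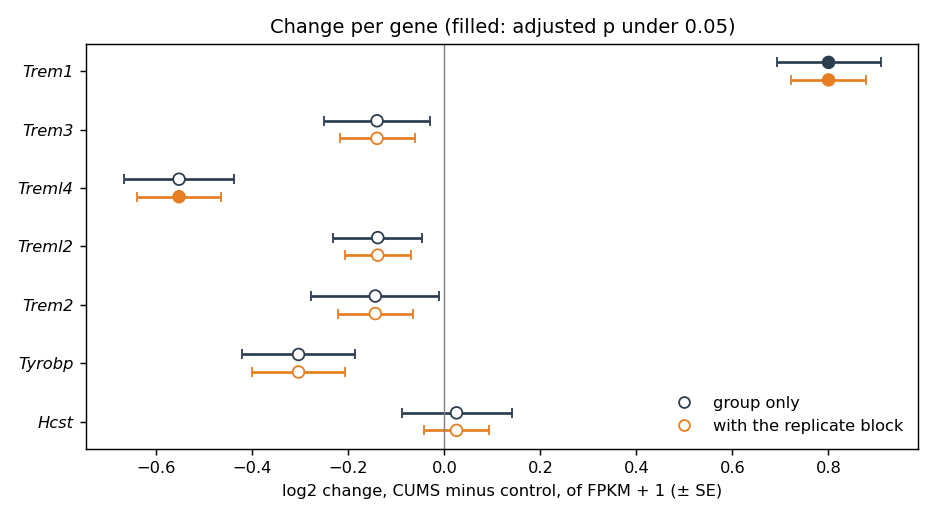
Log2 change of FPKM + 1, CUMS minus control, with its SE (x axis) for each gene (y axis), with group as the only term (dark) and with the replicate block (orange); filled points had an adjusted p under 0.05. Trem1 at 0.80 is filled in both fits and Treml4 at −0.55 only with the block.

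The order of the levels, on the FPKM scale, differed between the groups at 1 clear place. In both groups Tyrobp was highest, followed by Trem3 and Hcst, with no overlap between their ranges. In CUMS marrow Trem1 came next (24.8 to 30.9 FPKM) above Treml2 (21.3 to 24.3 FPKM), while in control marrow Treml2 (23.6 to 25.8 FPKM) came above Trem1 (15.4 to 16.6 FPKM). Lowest were Trem2 and Treml4, whose ranges overlapped in CUMS (5.20 to 6.61 and 4.78 to 5.94 FPKM) and just overlapped in control marrow (5.69 to 7.64 and 7.56 to 9.01 FPKM).

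The summed FPKM of the 5 receptors was 146 to 149.9 in CUMS and 144 to 164 in control libraries, so that the total did not separate the groups. Trem1 made up 16.99%, 20.6% and 20.4% of that sum in CUMS replicates 1 to 3, and 9.38%, 11.5% and 11.1% in control replicates 1 to 3. Trem3 took 55.73% to 60.30% in CUMS and 60.34% to 66.92% in control libraries, so its groups were barely apart. Treml4 took 3.22% to 3.96% in CUMS and 4.62% to 6.26% in control libraries. The shares of Treml2 and Trem2 overlapped between the groups.

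Ratios within a library do not move with its scaling, apart from the pseudocount of 1. Trem1 was at 4.55%, 5.19% and 5.23% of the FPKM of Tyrobp in CUMS replicates 1 to 3, and at 1.92%, 2.56% and 2.33% in control replicates 1 to 3. The mean log2 ratio was 1.10 higher in CUMS. In an exact two-sided permutation test its p was 0.1, the smallest that 3 against 3 libraries allow (adjusted over 6 ratios, 0.2). The ratio of Trem3 to Tyrobp was 0.16 higher and that of Tyrobp to Hcst 0.33 lower on the log2 scale, in both cases without overlap of the groups and with the same exact p. Tyrobp was 11.0 to 13.8 times Hcst in CUMS and 15.3 to 16.7 times Hcst in control libraries. For Treml4 the ratio to Tyrobp overlapped between the groups (log2 difference −0.25, exact permutation p = 0.3), as it did for Treml2 and Trem2 (0.17 and 0.16, exact permutation p = 0.3 each).

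**Figure D3:**
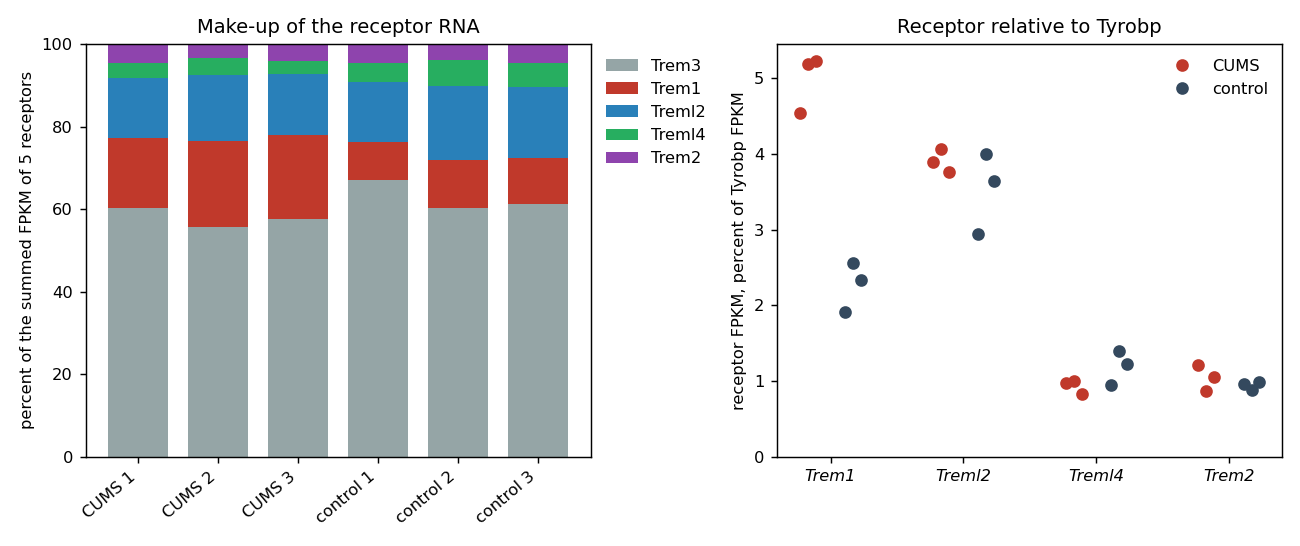
Left, the percent of the summed FPKM of the 5 receptors taken by each receptor (y axis) in each library (x axis); right, the FPKM of 4 receptors as a percent of that of Tyrobp, with 1 point per library, CUMS in red and control dark. Trem1 takes 16.99% to 20.6% of the receptor sum in CUMS and 9.38% to 11.5% in control libraries, and its points relative to Tyrobp do not overlap.

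Of the 3 other genes of the cluster (B430306N03Rik, listed by RefSeq also as Treml6, 9830107B12Rik, also Trem5, and Treml1, a receptor of platelets) none passed and all had values below 0 (median log2 change −0.28, −0.0017 over all tested genes). Values below 0 were seen for 50.3% of all tested genes. B430306N03Rik had 24.6 ± 1.70 FPKM in CUMS and 32.02 ± 2.49 FPKM in control marrow (SD, n = 3 each; log2 change −0.37, adjusted p = 0.138, with the replicate block 0.0283). Of 5 tested genes beside the cluster none passed, and Tspo2, an erythroid cholesterol-binding protein, had the smallest p (log2 change −0.14, adjusted p = 0.602). Beside Tyrobp and Hcst 1 of 6 genes was tested, the IκB-like regulator Nfkbid, at a log2 change of 0.03 (adjusted p = 0.957).

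**Figure D4:**
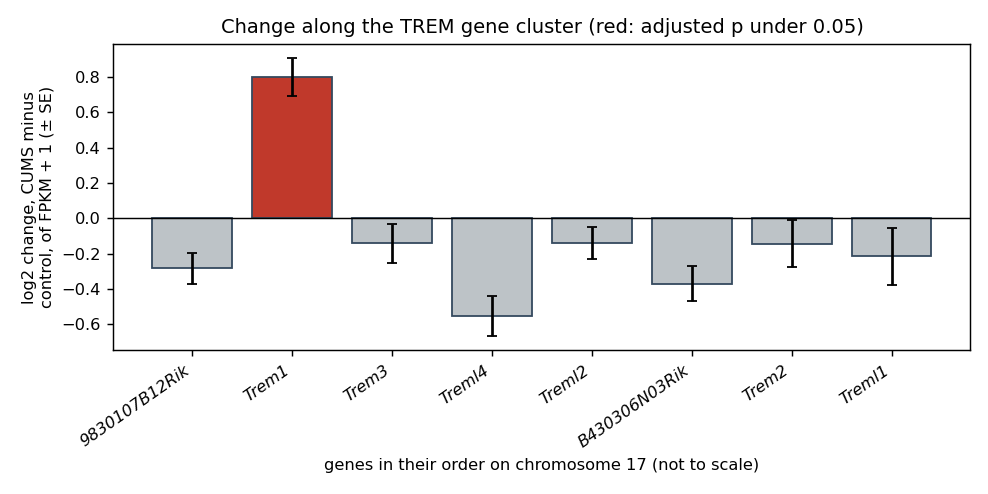
Log2 change of FPKM + 1, CUMS minus control, with its SE (y axis) for the 8 TREM-family genes of chromosome 17 in their order along it (x axis, not to scale); the red bar had an adjusted p under 0.05. Trem1 at 0.80 is the only bar above 0, and its neighbour Trem3 is at −0.14.

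Among 7 tested ligands, co-receptors and sheddases none passed, and 5 had values below 0 (median log2 change −0.06), against 50.3% of all tested genes. Apoe, a lipoprotein that binds Trem2, had 126 ± 17.2 FPKM in CUMS and 196 ± 41.6 FPKM in control marrow (SD, n = 3 each). Its log2 change of −0.63 missed the threshold (adjusted p = 0.131) and passed with the replicate block (0.00793). Pglyrp1, a neutrophil granule protein and ligand of Trem1, had 602 ± 70.6 FPKM in CUMS and 699 ± 120 FPKM in control marrow (SD, n = 3 each; log2 change −0.21, adjusted p = 0.583).

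Of 13 tested receptors that share Tyrobp or Hcst as a partner none passed. Among them 10 had values below 0 (median −0.21), against 50.3% of all tested genes. Cd300lb, an activating receptor of myeloid cells, had 25.9 ± 0.301 FPKM in CUMS and 35.9 ± 1.41 FPKM in control marrow (SD, n = 3 each; log2 change −0.46, adjusted p = 0.0543). With the replicate block 2 were lower, Cd300lb and the paired receptor Pilrb1 (adjusted p = 0.0163 and 0.0241). In the same fit 2 were higher, the NK receptors Klra8 and Klra4 (adjusted p = 0.0261 and 0.0267), with log2 changes of 0.79 and 0.54. Over all tested genes 4.31% were lower and 3.49% higher in that fit. Klra8 and Klra4 come from a gene family of similar members, and how the authors' counting divided reads between them is not given in the sources used here.

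The adaptor chains that carry ITAM motifs like that of Tyrobp gave no call among 5 (median −0.25). Fcer1g, the chain of Fc receptors, had 292, 268 and 253 FPKM in CUMS replicates 1 to 3, and 362, 307 and 321 FPKM in control replicates 1 to 3. Its groups did not overlap either, as for Tyrobp (log2 change −0.28, adjusted p = 0.274), and the ratio of Tyrobp to Fcer1g was 1.87 to 2.29 in CUMS and 2.103 to 2.21 in control libraries. Cd79a, a chain of the B cell receptor, came nearest to the threshold (log2 change −0.32, adjusted p = 0.184, with the replicate block 0.0360).

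Below the adaptors, none of 24 tested kinases and effectors passed. Among them 18 had values below 0 (median −0.12), against 50.3% of all tested genes. Syk, which binds the phosphorylated ITAM, had 68.3 ± 5.22 FPKM in CUMS and 83.7 ± 11.7 FPKM in control marrow (SD, n = 3 each; log2 change −0.28, adjusted p = 0.336). The Src-family kinase Fgr had the smallest p (log2 change −0.28, adjusted p = 0.158). With the replicate block 2 of the list were lower, Fgr (0.0483) among them, against 4.31% of all tested genes. None of 11 inhibitors passed (median −0.12). Dok3, an adaptor that restrains ITAM signals, was the nearest (log2 change −0.36, adjusted p = 0.177, with the block 0.0401). With the block 1 of the 11 inhibitors was lower, against 4.31% of all tested genes.

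Of 11 cytokines and chemokines that Trem1 engagement is known to induce, 6 were tested and 4 rose, the neutrophil attractant Cxcl2 and the monocyte and lymphocyte attractants Ccl3, Ccl4 and Ccl2. These 4 were known to be higher when the list was drawn up, so their count is not independent support. The share of all tested genes that rose was 0.618%. Their log2 changes were 1.28, 1.29, 1.29 and 1.16 (adjusted p = 0.00565, 0.00717, 0.0115 and 0.0278). The other tested members did not pass. Il1b, interleukin-1 beta, had 66.6, 63.2 and 59.6 FPKM in CUMS replicates 1 to 3, and 56.3, 50.1 and 49.9 FPKM in control replicates 1 to 3 (log2 change 0.27, adjusted p = 0.226). Tnf, tumour necrosis factor, had 7.27 ± 1.18 FPKM in CUMS and 6.88 ± 0.403 FPKM in control marrow (SD, n = 3 each; log2 change 0.06, adjusted p = 0.875). Of the genes under the filter, which were not tested, Cxcl1 was listed at 0 in all 6 libraries. Il6, interleukin-6, had 0.953 ± 0.190 FPKM in CUMS and 0.364 ± 0.136 FPKM in control marrow (SD, n = 3 each), with groups apart. The groups of Il1a, Cxcl3 and Csf2 overlapped, all under 1 FPKM.

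Among 12 tested genes linked to Trem2 in lipid-handling phagocytes none passed (median −0.16). Axl, a receptor for the uptake of dying cells, had 11.3 ± 0.621 FPKM in CUMS and 15.4 ± 0.744 FPKM in control marrow (SD, n = 3 each; log2 change −0.42, adjusted p = 0.0830). With the replicate block Axl, the galectin Lgals3 and the lysosomal protease Ctsd were lower (0.0323, 0.0444 and 0.0468) and Cst7, a protease inhibitor, was higher (0.0262). In that fit 4.31% of all tested genes were lower and 3.49% higher. In all, 4 of the 87 tested pathway and neighbour genes passed with group as the only term, against 1.07% of all tested genes. These 4 were Cxcl2, Ccl3, Ccl4 and Ccl2, known to be higher when their list was drawn up, so their count is no independent support. With the block 18 passed, the same 4 among them, against 7.80%.

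**Figure D5:**
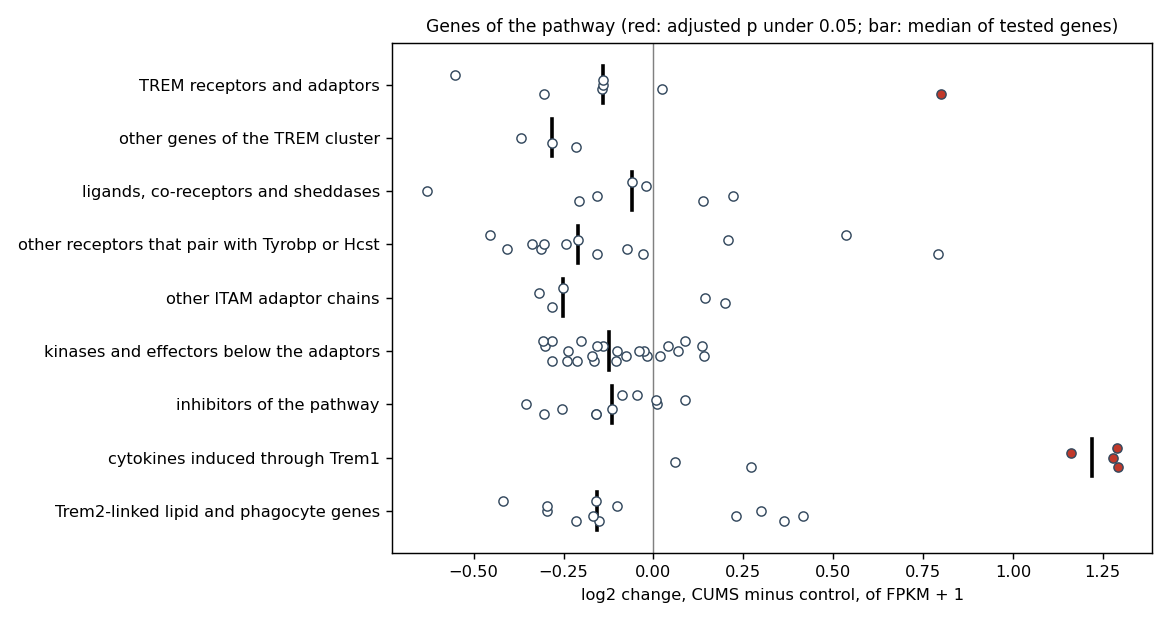
Log2 change of FPKM + 1, CUMS minus control (x axis), of each tested gene of the pathway lists (rows); red points had an adjusted p under 0.05 and the bar is the median of the tested genes. Trem1 and the 4 chemokines are the red points, all to the right of 0, while the median of the kinases and effectors is −0.12.

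Markers of the cells known to carry Trem1 are given beside it. None of 10 neutrophil markers passed, and Ly6g, the surface marker of mouse neutrophils, had the smallest p (log2 change −0.20, adjusted p = 0.511). Their summed FPKM, mostly that of S100a8 and S100a9, was 49533 to 51811 in CUMS and 47112 to 65612 in control libraries. Of 6 classical monocyte markers 1 fell, the growth factor receptor Csf1r (30.1 ± 2.67 FPKM in CUMS and 46.7 ± 2.78 FPKM in control marrow, SD, n = 3 each; log2 change −0.62, adjusted p = 0.0338). Over all tested genes 0.455% were lower, and 4.31% with the block. With the block 3 of the 6 markers were lower, Csf1r, the chemokine receptor Ccr2 (log2 change −0.51, adjusted p = 0.0196) and Ms4a4c (−0.62, 0.0171). That list summed to 961 to 1017 FPKM in CUMS and 958 to 1153 FPKM in control libraries. Most of that sum was Ly6c2, at means of 727 FPKM in CUMS and 708 FPKM in control marrow. Of 5 eosinophil markers 2 rose, the granule proteins Epx and Prg2 (log2 changes 0.98 and 1.03, adjusted p = 0.00551 and 0.0196). With the block 3 were higher, Epx, Prg2 and the lectin Siglecf (0.0487). Over all tested genes 0.618% were higher, and 3.49% with the block. The eosinophil list summed to 1092 to 1120 FPKM in CUMS and 467 to 643 FPKM in control libraries, mostly that of Prg2. The platelet, T cell, red cell and muscle and fat lists had no call. Nearest to the threshold were Gp9 of the platelet list (adjusted p = 0.508), Cd8a of the T cell list (0.318) and Adipoq of the muscle and fat list (0.931). The part of any of these cells in the level of Trem1 was not tested.

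The tested genes whose profiles over the 6 libraries lay nearest to that of each member are given as a description. Nearest is meant by the root mean square difference of log2(FPKM + 1), each gene centred on its own mean, among the 12078 genes that averaged 1 or more on that scale. For Trem1 these were the phosphatase Ptp4a1 (0.0698), the stress-induced transcription factor Atf3 (0.0704) and the small nucleolar RNA Snord22 (0.0765). Atf3 had 5.25 ± 0.751 FPKM in CUMS and 2.76 ± 0.135 FPKM in control marrow (SD, n = 3 each; log2 change 0.73, adjusted p = 0.0410), and Ptp4a1 17.9 ± 0.972 FPKM and 9.64 ± 0.467 FPKM (0.83, adjusted p = 0.0107). For Treml4 the nearest were Trim14, a mitochondrial antiviral signalling protein (0.0480), Ptafr, the receptor of platelet-activating factor (0.0613), and Gm13736 (0.0623). Ptafr fell (7.94 ± 0.384 FPKM in CUMS and 11.8 ± 0.446 FPKM in control marrow, SD, n = 3 each; log2 change −0.52, adjusted p = 0.0484).

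For Tyrobp the nearest profiles were those of Gm39427 (0.0339), the LIM protein gene Crip1 (0.0350) and Paip2, a regulator of translation (0.0377). For Trem3 they were Skap2, an adaptor of integrin signalling (0.0115), Ogfod2 (0.0233) and the purine enzyme Pnp (0.0254). Treml2 had Capn2 (0.0277), Hdac10 (0.0303) and Nedd4l (0.0308), Trem2 had Iah1 (0.0252), Czib (0.0253) and Mrpl14 (0.0273), and Hcst had Pdcd6 (0.0129), Ppp2ca (0.0214) and Acadvl (0.0227). Of the other members, Hcst was the nearest to Trem1, at 0.437. All these profiles share the 6 libraries and their header codes, so likeness includes what the libraries have in common.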

How the data were processed

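RNA of mouse bone marrow was extracted with TRIzol, made into TruSeq libraries and sequenced on an Illumina NovaSeq in paired reads of 151 bp, per the labels' protocols. HISAT2 2.1, featureCounts 1.6.4, cutadapt 1.16.5, bcl2fastq 2.19, mm10 and DESeq2 2.11.40.6 are listed, per the submitters' processing notes; which of them made the values, or if strand counted, is not given in the sources used here. The deposited values are FPKM, 1 library per file with 47561 entries. That unit is an inference from the numbers themselves, and no scaling between samples is recorded.

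The 7 genes and all gene lists were chosen with earlier results of these data known. A gene was tested where 3 or more libraries reached 1 FPKM (12302 genes) by limma-trend (limma 3.58.1, R 4.3.3) on log2(FPKM + 1), with no term but group; adding 1 makes changes of low genes smaller than the ratio of means. p-values were adjusted by Benjamini-Hochberg over all tested genes, and an adjusted p under 0.05 was called. Log2 changes are CUMS minus control. Ratios were tested by exact permutation (scipy 1.17.1). Tables and plots were made in Python 3.11.15 with pandas 2.3.3, numpy 2.4.6 and matplotlib 3.10.9. The fit was tested on simulated data. No label says that the libraries came from separate mice, so p-values measure the spread between these libraries, which may be technical, and their number, 3 against 3, limits the precision.

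Titles carry replicate numbers. Same-numbered libraries deviated together from their groups' means (correlations over genes 0.689, 0.452 and 0.363), and crossing replicates 2 and 3 gave 0.459 and 0.362. The rule set for a pairing (each above 0.1) was met, although replicate 1 of both groups shares its header code, and replicates 2 and 3 went together as much when crossed. Values with the replicate block are therefore given beside results whose call it changed. In that fit 4.31% of all tested genes were lower and 3.49% higher.

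Genes other than the 7 were named by rule: the called members of a list (at most 4), or the one with the smallest p where none was called, and the 3 nearest profiles of each of the 7. Pglyrp1, Fcer1g, Syk, Il1b, Tnf, Cxcl1, 9830107B12Rik, Treml1 and the genes called only with the block were added after values were seen. So were Il6, Il1a, Cxcl3, Csf2, Spn, Itgal, Ly6c2, S100a8 and S100a9. Some genes that these rules name are not reported here. The alternatives tried were the replicate block, the header code as a term, the libraries of 1 code alone, other pseudocounts, filters and scalings, and leaving out each library.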

Additional observations from a re-analysis of the deposited data

How the results depend on the processing

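Of 16 alternatives, 10 kept Trem1 past the threshold, and all 16 kept its direction. With the replicate block 959 genes were called in all, with the header code as a term 1645, in the libraries of code 2 alone 2173, with no filter 36 and after quantile normalization 200; leaving out 1 library gave 17 to 262. Of the 7 genes, 2 were called with the block, the code term or code 2 alone (Trem1 and Treml4), 0 with no filter or the same summed FPKM, and 0 to 1 without 1 library. Trem1 missed the threshold with no filter (log2 change 0.80, more genes being tested) and with the same summed FPKM (0.76); without 1 library it lay between 0.74 and 0.90. Treml4 passed with the block (−0.55), with the code as a term (−0.55, adjusted p = 0.0110) and in code 2 alone (−0.61, adjusted p = 0.0134). Hcst turned to −0.015 with the same summed FPKM, and without 1 library it ran from −0.037 to 0.12.

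Of the pathway and neighbour genes, 18 were called with the block, 29 with the code term, 31 in code 2 alone, 2 with no filter, 8 with the same summed FPKM, 7 with quantile normalization, and 1 to 6 without 1 library. Calls over all 12302 tested genes moved too, from 132 with group as the only term to 2173 in code 2 alone. They made up 7.80% with the block and 13.4% with the code term, and were 166 with the same summed FPKM. The pathway lists hold Cxcl2, Ccl3, Ccl4 and Ccl2, known to be higher when their list was drawn up. Block or code terms changed no other call among the 7 genes; the cause of these moves was not tested. Signs turned for 6 other named genes, none of them called: with the same summed FPKM Pdcd6 was at −0.029, Acadvl at −0.028 and Nfkbid at −0.013, and in code 2 alone Atp6v0d2 was at −0.074. Without 1 library Pdcd6 ran from −0.056 to 0.11, Ppp2ca from −0.011 to 0.16, Acadvl from −0.047 to 0.10, Nfkbid from −0.055 to 0.14, Atp6v0d2 from −0.018 to 0.22 and Adipoq from −0.070 to 0.17. Scaling to the same summed FPKM moved the median of all genes to −0.036. No ratio changed sign; with 3 libraries a group, no exact p could fall below 0.1. Depth in counts is unknown, so the counting error of the lowest receptors, Trem2 and Treml4, could not be given.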
